A study of Homo sapiens with 15 samples.

Results

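The AP-1 genes examined here are FOS, FOSB, FOSL1, FOSL2, JUN, JUNB, JUND and BATF3, 8 of the 35805 genes in the deposited table. They were chosen by name, with earlier results of these data known. Each was listed once, and all 8 passed the filter on low values that left 16787 genes for testing. RNA-seq was performed in 15 libraries of HEK-293T, a cell line derived from human embryonic kidney. Of these, 6 were from cells with an sgRNA against THAP1 (3 with sg1-THAP1 and 3 with sg2-THAP1, together sgTHAP1), 6 from cells with a control sgRNA (3 with sg1-Control and 3 with sg2-Control, together sgControl) and 3 from untransduced cells, labelled wild-type. According to the study's methods, the guides were delivered with Cas9 by lentivirus. THAP1 was disrupted in cells that carry GFP at the endogenous PSMB5 locus, a knock-in that was single-cell cloned, and that overexpress PSMB5 to stay viable. Cells with dim GFP were then sorted, so that the sgTHAP1 libraries come from sorted populations. Whether the control and untransduced cells had the same knock-in, PSMB5 vector and sort is not given in the sources used here, and these features cannot be told apart from the THAP1 guides. In the same way, transduction and anything else that separates cells with a control guide from untransduced cells cannot be told apart.

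AP-1 is a transcription factor made of a pair of basic leucine zipper (bZIP) proteins, most often 1 FOS protein bound to 1 JUN protein. JUN proteins can also pair with each other, whereas FOS proteins need a JUN partner. Several of these genes are immediate early genes, transcribed within minutes of serum, growth factors or stress through MAP kinases and the factors SRF, ELK and CREB at their promoters, and their mRNAs are short-lived. According to the study's methods the HEK-293T cells were grown in serum, and its part in the levels seen here was not tested.

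In the deposited GRCh38 coordinates, FOS spans chr14:75278774-75282230 and FOSL2 chr2:28392448-28417312 on the plus strand, and FOSL1 chr11:65892049-65900573, JUN chr1:58780788-58784327 and BATF3 chr1:212686418-212699985 on the minus strand. The other three lie on chromosome 19, FOSB at chr19:45467995-45475179 and JUNB at chr19:12791496-12793315 on the plus strand and JUND at chr19:18279760-18281622 on the minus strand. Values are for each whole gene, so splice forms were not separated.

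The promoters are shown because the FOS family and JUNB changed in the same direction, and because CREB and AP-1 bind short motifs there. RefSeq promoter windows on GRCh38.p14, 250 bases before to 50 after the annotated start, were at hand for 6 of the 8 genes (FOS, FOSB, FOSL2, JUN, JUNB and JUND). For 4 of them the 100 bases just before the first base annotated as transcribed are given on the gene's own strand, with TGACGT, the core of the CREB/ATF site, in capitals in either orientation. They lie at chr14:75278674-75278773 (FOS, plus strand), chr19:45467895-45467994 (FOSB, plus strand), chr19:12791386-12791485 (JUNB, plus strand) and chr19:18281623-18281722 (JUND, minus strand).
FOS: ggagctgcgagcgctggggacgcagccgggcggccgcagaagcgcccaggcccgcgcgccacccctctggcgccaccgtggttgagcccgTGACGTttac
FOSB: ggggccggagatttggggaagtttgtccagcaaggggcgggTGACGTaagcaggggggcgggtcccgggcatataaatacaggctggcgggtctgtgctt
JUNB: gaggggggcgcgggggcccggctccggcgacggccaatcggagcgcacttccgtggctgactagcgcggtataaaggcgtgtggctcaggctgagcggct
JUND: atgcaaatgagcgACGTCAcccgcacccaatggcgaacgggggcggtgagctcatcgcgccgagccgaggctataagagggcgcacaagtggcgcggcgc

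TGACGT, searched on both strands, was present in the windows of FOS, FOSB, FOSL2 and JUND, 4 of 6, and in 7.98% of all 35116 RefSeq windows of the same length. Its first base lay at -64 in FOS, -60 in FOSB and -66 in FOSL2, counted from the RefSeq start. In JUND it lay at -87 on the opposite strand and again at -200, there within the palindrome TGACGTCA, which contains TGACGT on both strands and was present in 1.85% of all windows. The AP-1 motif TGACTCA was found in FOSL2 alone of the 6 (4.95% of all windows), and its variant TGACATCA in JUN alone, at -67 (2.61%). Neither the THAP1 motif TNNNGGCA (41.7% of all windows) nor an SRF-type CArG box (1.29%) was found in any of the 6 windows. Sites farther than 250 bases before the start were not searched, so the genes may have such motifs outside the windows. The FOSL2 and JUN windows already begin in bases annotated as transcribed. These matches describe the letters in the windows only.

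Each library held between 30400150 and 56638448 reads, recovered from the deposited values. Depth ranged from 30645103 to 47754887 reads in sgTHAP1, from 31900203 to 56638448 in sgControl and from 30400150 to 36548571 in untransduced libraries. THAP1 transcripts stood at 5.48 to 6.18 log2 RPM (RPM, a gene's reads for every 1000000 in the library) in sgTHAP1 libraries, against 3.25 to 3.57 in sgControl and 3.36 to 3.46 in untransduced libraries. All 6 sgTHAP1 libraries were thus above all other libraries in THAP1, with a log2 difference of 2.38 ± 0.11 (SE) for sgTHAP1 minus sgControl. The RNA level does not show whether the THAP1 alleles were edited, and the cause of the rise was not tested. PSMB5 stood at 11.32 to 11.53 log2 RPM in sgTHAP1 libraries, against 11.88 to 11.95 in sgControl and 11.74 to 11.77 in untransduced libraries. According to the study, exogenous PSMB5 kept the gene from being identified as differentially expressed. These PSMB5 values do not separate exogenous from endogenous transcripts. The HEK-293T markers IRS4, NEFL, NEFM and LIN28B were abundant in every library, while PAX2 had 36 to 122 reads. The 5 markers together summed to 686 to 773 RPM in sgTHAP1, 854 to 951 in sgControl and 947 to 949 in untransduced libraries, and IRS4, an adaptor of insulin receptor signalling, was lower in sgTHAP1 than in sgControl libraries (log2 difference -1.40 ± 0.024, SE). LIN28B was also lower in sgTHAP1 than in sgControl libraries (-0.57), NEFM was higher (0.51), and NEFL and PAX2 did not pass an adjusted p under 0.05 (-0.10 and -0.31). Of 8 blood cell markers, CD3D had 0 reads throughout and no other but CD14 exceeded 12 reads. Together they summed to 0.633 to 1.03 RPM in sgTHAP1, 0.778 to 1.25 in sgControl and 0.410 to 0.643 in untransduced libraries, with genes of 0 reads entered at 0.9 of a read. CD14 was higher than in untransduced libraries both in sgTHAP1 (log2 difference 1.44 ± 0.32, SE) and in sgControl (1.87 ± 0.32), on 4 to 44 reads. The 5 epithelial markers summed to 0.117 to 1.96 RPM in sgTHAP1, 0.0795 to 2.78 in sgControl and 0.129 to 0.148 in untransduced libraries. The part of these marker differences in the results was not tested.

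Mean levels of the FOS family transcripts were lower in sgTHAP1 than in sgControl cells, and lower again in untransduced cells. For FOSL1 the range of the sgTHAP1 libraries overlapped those of both other groups. With sg1-THAP1, FOS, the founding partner of JUN in AP-1, stood at 6.89, 6.89 and 7.26 RPM, and with sg2-THAP1 at 9.92, 8.88 and 10.4 RPM. In control cells FOS stood at 26.9, 28.1 and 26.9 RPM with sg1-Control and at 22.7, 19.9 and 21.8 RPM with sg2-Control, and untransduced libraries had 6.64, 5.01 and 4.59 RPM. All 6 sgTHAP1 libraries were thus below all 6 sgControl libraries and above all 3 untransduced libraries. The log2 difference of sgTHAP1 minus sgControl was -1.55 ± 0.12 (SE; limma, adjusted p = 1.5e-09), leaving 34.1% of the sgControl level. Relative to untransduced cells it was 0.63 ± 0.15 for sgTHAP1 (adjusted p = 7.0e-04) and 2.18 ± 0.15 for sgControl (adjusted p = 5.8e-11), a 4.52-fold excess in sgControl.

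FOSB, a FOS relative whose short splice form persists in stimulated neurons, had the largest fitted difference of the family in each comparison of pooled groups. Its level was 8.81, 7.56 and 8.98 RPM with sg1-THAP1 and 10.3, 8.36 and 9.65 RPM with sg2-THAP1. Control cells had 108, 109 and 106 RPM with sg1-Control and 82.0, 86.1 and 81.3 RPM with sg2-Control, whereas untransduced cells had 1.84, 2.44 and 2.69 RPM. The 3 groups did not overlap. FOSB fell in sgTHAP1 relative to sgControl by a log2 difference of -3.41 ± 0.10 (SE; adjusted p = 8.6e-16), or 10.6-fold, the 5th smallest p of the 16787 genes. Between sgControl and untransduced cells it was 41.2-fold higher (5.36 ± 0.12; adjusted p = 7.4e-18), the 3rd largest fitted rise of all genes tested, and between sgTHAP1 and untransduced cells it was 3.88-fold higher (1.96 ± 0.12; adjusted p = 1.1e-11). With sg2-THAP1 alone, FOSL1 was further above untransduced cells than FOSB, by log2 differences of 2.41 and 2.04. FOSB lies within the span of ERCC1, a DNA repair gene on the opposite strand, and whether the authors' counting used strand is not given, so reads of the pair may be shared. ERCC1 stood at 5.34 to 5.64 log2 RPM in sgTHAP1, 5.07 to 5.31 in sgControl and 5.23 to 5.31 in untransduced libraries, with a log2 difference of 0.30 for sgTHAP1 minus sgControl, opposite in sign to that of FOSB.

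FOSL1 and FOSL2 encode FRA-1 and FRA-2, FOS relatives that lack the main activation domain of FOS. FOSL1 had as few as 3 reads in a library, so each library is given in reads. There were 22, 9 and 18 reads with sg1-THAP1 and 22, 42 and 132 with sg2-THAP1. Control libraries held 202, 170 and 120 reads with sg1-Control and 89, 165 and 101 with sg2-Control, and untransduced libraries held 13, 3 and 12. Replicate 3 of sg2-THAP1, at 2.76 RPM, reached into the sgControl range of 2.51 to 5.17 RPM, while the other 5 sgTHAP1 libraries (0.286 to 1.09 RPM) were below it. The log2 difference of sgTHAP1 minus sgControl was -2.09 ± 0.43 (SE; adjusted p = 3.7e-04), with an exact two-sided permutation p of 0.00433, against a smallest possible p of 0.00216 for 6 against 6 libraries. Without replicate 3 of sg2-THAP1 the difference was -2.45 (adjusted p = 1.4e-05). The call depended on single control libraries, since the adjusted p was 0.0013, 0.0010 and 0.0014 without replicate 1 of sg1-Control, replicate 3 of sg1-Control or replicate 2 of sg2-Control, and over all alternatives it ranged from 1.1e-08 to 0.0023. In sgControl relative to untransduced cells FOSL1 was 14.1-fold higher (3.82 ± 0.53; adjusted p = 2.3e-06), and in sgTHAP1 relative to untransduced cells the groups overlapped (1.73 ± 0.53; adjusted p = 0.0064). Both values leaned on replicate 2 of the untransduced cells, the library with 3 reads. Without it the log2 difference was 0.95 for sgTHAP1 minus untransduced, which no longer passed (adjusted p = 0.11), and 3.04 for sgControl minus untransduced (adjusted p = 4.6e-05). A pseudocount of 0.5 RPM brought them to 0.80 and 2.31.

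FOSL2 was less variable. It stood at 5.81, 5.62 and 5.87 RPM with sg1-THAP1 and at 9.04, 10.2 and 8.46 RPM with sg2-THAP1. Control cells had 30.8, 33.2 and 32.8 RPM with sg1-Control and 29.5, 28.7 and 28.9 RPM with sg2-Control, and untransduced cells had 4.31, 3.86 and 4.20 RPM. None of the 3 groups overlapped. FOSL2 fell 4.20-fold in sgTHAP1 relative to sgControl (log2 difference -2.07 ± 0.12, SE; adjusted p = 3.5e-11) and was 7.44-fold higher in sgControl than in untransduced cells (2.89 ± 0.15; adjusted p = 1.2e-12). The smaller excess of sgTHAP1 over untransduced cells was 0.82 ± 0.15 on the log2 scale (adjusted p = 5.7e-05). A pair of genes that overlap FOSL2, FLJ31356 and RP11-373D23.2, had at most 1 and 3 reads in any library.

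Among the JUN genes, JUNB and JUND fell in sgTHAP1 relative to sgControl cells and JUN itself moved little. JUNB, which also pairs with FOS proteins and is a weaker activator than JUN, stood at 10.1, 11.1 and 11.1 RPM with sg1-THAP1 and at 12.7, 9.82 and 13.0 RPM with sg2-THAP1. With control guides the values separated by guide, at 39.9, 40.6 and 38.7 RPM for sg1-Control and 23.6, 24.0 and 22.8 RPM for sg2-Control, and untransduced cells had 12.4, 10.3 and 12.6 RPM. The sgTHAP1 libraries lay below both control guides and overlapped the untransduced libraries. The log2 difference was -1.44 ± 0.14 (SE; adjusted p = 3.2e-08) for sgTHAP1 minus sgControl and 1.38 ± 0.17 (adjusted p = 4.6e-07) for sgControl minus untransduced, which with sg2-Control alone was 0.99994, just under 2-fold, and with sg1-Control alone 1.76. In the fit with separate guide coefficients, sgTHAP1 minus sg1-Control was -1.82 and sgTHAP1 minus sg2-Control was -1.06, a 2.09-fold fall. For sgTHAP1 minus untransduced the fitted value was -0.06 with a 95% interval of -0.41 to 0.29 (adjusted p = 0.76), and its sign turned under quantile normalization (0.33), under median centring (0.21) and with sg2-THAP1 alone (0.0024). JUNB lies within the span of HOOK2, a gene for a microtubule-linked adaptor on the opposite strand, which stood at 3.76 to 4.44 log2 RPM in sgTHAP1, 3.97 to 4.16 in sgControl and 4.59 to 4.64 in untransduced libraries.

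JUND is the JUN gene most constantly expressed in resting cells. Its level was 82.9 to 92.7 RPM in the 6 sgTHAP1 libraries, 132 to 138 RPM in the 6 sgControl libraries and 64.3 to 67.4 RPM in the 3 untransduced libraries, with no overlap between groups. The log2 difference of sgTHAP1 minus sgControl was -0.62 ± 0.031 (SE; adjusted p = 2.9e-12), a 1.54-fold fall that was under the 2-fold threshold. Between sgControl and untransduced cells it was 1.02 ± 0.038 (adjusted p = 8.7e-15), barely past 2-fold, and it slipped below that threshold without replicate 1 of the untransduced cells (0.9991), under quantile normalization (0.92) and with voom (0.99). The excess of sgTHAP1 over untransduced cells was 0.40 ± 0.038 (adjusted p = 9.9e-09).

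JUN, the most abundant member, ranged from 462 to 503 RPM in sgTHAP1 libraries (median log2 RPM 8.91), from 487 to 555 RPM in sgControl libraries (median 9.01) and from 324 to 333 RPM in untransduced libraries (median 8.36). The sgTHAP1 and sgControl ranges overlapped, and both were above the untransduced range. The log2 difference of sgTHAP1 minus sgControl was -0.11 ± 0.031 (SE; adjusted p = 0.0074, exact two-sided permutation p = 0.00866), although under median centring it was 0.0087 (adjusted p = 0.84). In the limma fit with separate guide coefficients it was -0.16 against sg1-Control alone (adjusted p = 1.6e-08). Against sg2-Control alone it was -0.05 and did not pass (adjusted p = 0.073). JUN was higher than in untransduced cells by a log2 difference of 0.55 ± 0.038 in sgTHAP1 (adjusted p = 6.0e-11) and 0.66 ± 0.038 in sgControl (adjusted p = 6.7e-12).

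BATF3, a small bZIP partner of JUN without an activation domain of its own, is best known from dendritic cells. It had 93 to 169 reads in sgTHAP1, 90 to 209 in sgControl and 109 to 140 in untransduced libraries, and all groups overlapped. The fitted log2 difference of sgTHAP1 minus sgControl was -0.02 with a 95% interval of -0.25 to 0.21 (adjusted p = 0.88). It was -0.13 for sgControl minus untransduced (adjusted p = 0.41) and -0.15 for sgTHAP1 minus untransduced (adjusted p = 0.32), but quantile normalization turned these last values to 0.40 (adjusted p = 0.015) and 0.52 (adjusted p = 0.0019).

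**Figure D1:**
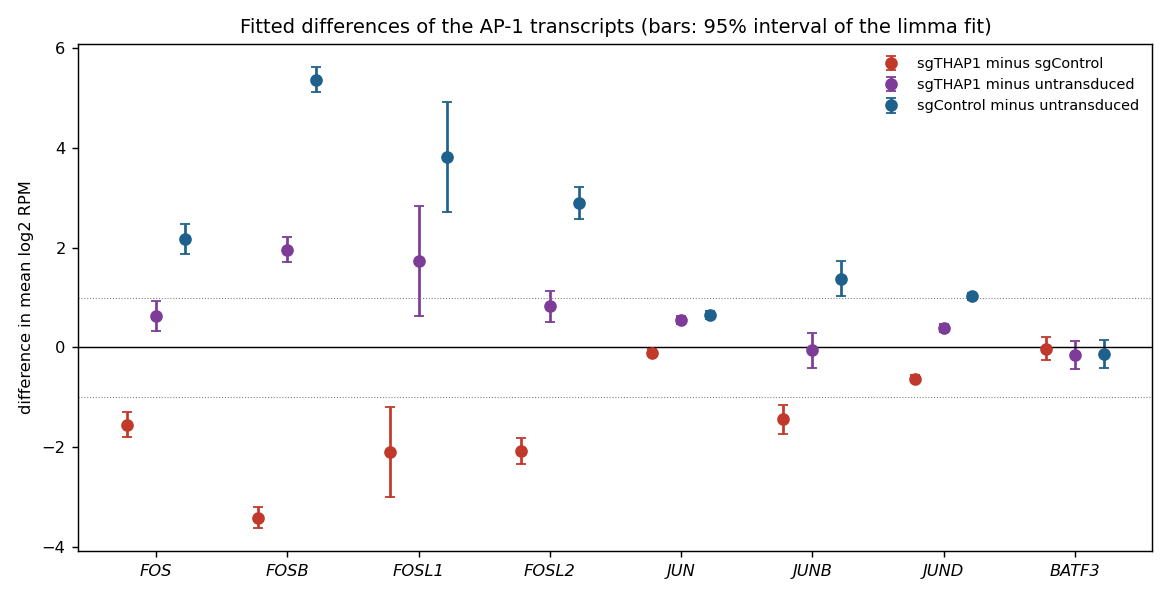
Fitted log2 differences of the 8 transcripts for sgTHAP1 minus sgControl (red), sgTHAP1 minus untransduced (purple) and sgControl minus untransduced (blue), with 95% intervals and dotted lines at 2-fold. FOSB has the largest difference in each comparison (-3.41, 1.96 and 5.36), the FOSL1 intervals are the widest, and those of BATF3 include 0. The comparisons share libraries.

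Counted over the family, 5 of 8 members (FOS, FOSB, FOSL1, FOSL2 and JUNB) were called lower in sgTHAP1 than in sgControl cells at an adjusted p under 0.001 and more than 2-fold, against 1.83% of all genes tested, and 0 were called higher. With the fold threshold dropped and an adjusted p under 0.05, 7 of 8 were lower, against 32.6% of all genes. Among them was JUN, which did not pass against sg2-Control alone. In 5 of 8 (FOS, FOSB, FOSL2, JUNB and JUND) every sgTHAP1 library was below every sgControl library, against 19.9% of all genes. The median log2 difference was -1.496 over the members and -0.06 over all genes. The study discounted genes that differed between untransduced and control-guide cells, without stating a threshold for that step. When genes called here between sgControl and untransduced cells were discounted, 0 of the 5 members remained.

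Between sgControl and untransduced cells 6 of 8 members (all but JUN and BATF3) were called higher, against 2.29% of all genes, and 7 of 8 passed an adjusted p under 0.05 as higher, against 28.1%. All 6 sgControl libraries were above all 3 untransduced libraries in 7 of 8 members, against 27.3% of all genes. The median was 1.78 over the members and -0.12 over all genes. Between sgTHAP1 and untransduced cells only FOSB, 1 of 8, was called higher (2.52% of all genes), 6 of 8 were higher at an adjusted p under 0.05 (26.9%), among them FOSL1, which did not pass without replicate 2 of the untransduced cells, and 5 of 8 had all libraries above (23.5%), with a median of 0.59 over the members and -0.20 over all genes. Quantile normalization moved the median of all genes to 0.02, -0.0038 and 0.01 in the comparisons of sgTHAP1 with sgControl, sgControl with untransduced and sgTHAP1 with untransduced, and 4 members (FOS, FOSB, FOSL1 and FOSL2) were then called higher in sgTHAP1 than in untransduced cells. The 3 comparisons share libraries, and their values are given side by side without further comparison.

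Guides of the same kind were compared in the fit with separate guide coefficients. FOS, FOSL1 and FOSL2, 3 of 8, were lower with sg1-THAP1 than with sg2-THAP1 at an adjusted p under 0.05, against 40.0% of all genes that differed between these guides in either direction, so that the members' count was near that of all genes. The log2 differences were -0.47 ± 0.094 for FOS (adjusted p = 7.7e-05), -1.37 ± 0.42 for FOSL1 (adjusted p = 0.0078) and -0.67 ± 0.081 for FOSL2 (adjusted p = 5.7e-09). The FOSL1 difference was lost without replicate 3 of sg2-THAP1 (-0.82; adjusted p = 0.16) or without replicate 2 of sg1-THAP1 (-0.98; adjusted p = 0.091), and without replicate 2 of sg2-THAP1 FOSB and JUNB also differed, making 5. Both guides were on the same side of sgControl in each of these genes, FOSL2 for example at -2.41 ± 0.070 with sg1-THAP1 and -1.74 ± 0.070 with sg2-THAP1.

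FOS, FOSB, JUN and JUNB, 4 of 8, were higher with sg1-Control than with sg2-Control, against 3.88% of all genes that differed between the control guides in either direction. The log2 differences were 0.35 ± 0.094 for FOS (adjusted p = 0.023), 0.37 ± 0.088 for FOSB (adjusted p = 0.0078), 0.12 ± 0.025 for JUN (adjusted p = 0.0026) and 0.76 ± 0.081 for JUNB (adjusted p = 1.5e-08), which had the 8th smallest p of all genes. The FOS difference was lost without any 1 of 4 libraries, replicates 1, 2 and 3 of sg1-Control and replicate 2 of sg2-Control (adjusted p = 0.060, 0.11, 0.078 and 0.14), and the FOSB difference without replicate 2 of sg1-Control (adjusted p = 0.050), which left 2 members. The labels do not say whether libraries of 1 guide came from separate transductions. If they did not, the p-values of the pooled groups count them as more independent than they are. In either case the pooled fit and the permutation tests take no account of guide, and count libraries of 1 guide as independent.

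To compare members with each other, levels were divided by the length of their GENCODE exons within the deposited gene, which was 1820 bases for JUNB and 7157 for FOSL2 at the extremes. JUN was the highest in every group, with a median of 148 RPM per kb in sgTHAP1, 158 in sgControl and 101 in untransduced libraries. JUND followed at 46.6, 71.8 and 36.1. In sgTHAP1 libraries the order then ran JUNB (6.08), FOS (2.53), FOSB (1.60), BATF3 (1.30), FOSL2 (1.001) and FOSL1 (0.373), and the ranges of neighbours from FOSB downwards overlapped. In sgControl libraries FOSB (17.3) and JUNB (17.2) overlapped next, followed by FOS (7.78), FOSL2 (4.21), FOSL1 (1.69) and BATF3 (1.33), the last 2 overlapping. In untransduced libraries JUNB (6.81), FOS (1.57), BATF3 (1.47), FOSL2 (0.587), FOSB (0.439) and FOSL1 (0.209) followed JUND, and only FOS and BATF3 overlapped. FOSB was thus among the 4 highest members in sgControl cells but not in sgTHAP1 or untransduced cells.

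**Figure D2:**
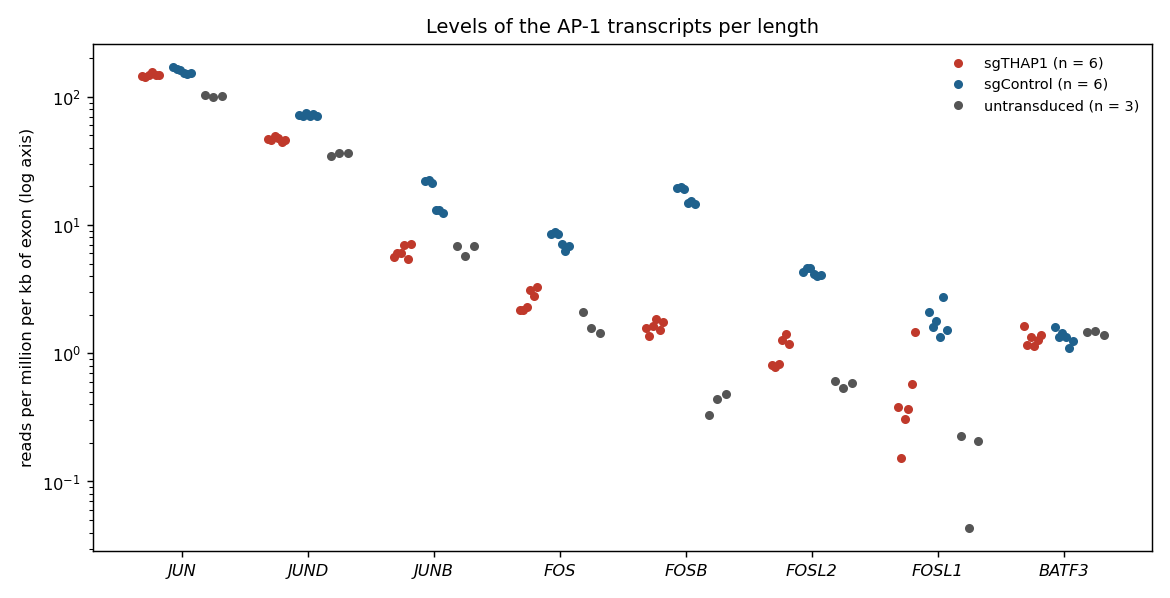
Level per length (RPM per kb of exon, log axis) of each AP-1 transcript in every library of sgTHAP1 (red), sgControl (blue) and untransduced cells (grey). JUN and JUND are highest in each group, and FOSB has medians of 1.60, 17.3 and 0.439 in the 3 groups.

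Summed per length, the 8 transcripts came to 199 to 217 RPM per kb in sgTHAP1, 266 to 301 in sgControl and 145 to 148 in untransduced libraries. The FOS family made up 2.24% to 3.64% of this sum in sgTHAP1, 10.2% to 11.8% in sgControl and 1.79% to 2.19% in untransduced libraries. JUN alone made up 70.3% to 72.1% in sgTHAP1, 55.3% to 58.0% in sgControl and 68.1% to 69.0% in untransduced libraries. In these bulk samples, fewer cells with a transcript and less of it per cell cannot be told apart.

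The genes around AP-1 were counted in lists from textbook knowledge, with adjustment over all genes and a threshold of 0.05. The lists were chosen with earlier results of these data known, so their counts are a description. In sgTHAP1 relative to sgControl cells 32.6% of all genes tested were lower and 20.2% higher, for comparison with each list below. In sgControl relative to untransduced cells 40.5% were lower and 28.1% higher. Of 16 other immediate early genes 15 were lower and 0 higher in sgTHAP1 than in sgControl cells, with a median log2 difference of -1.86, and 14 were higher and 1 lower in sgControl than in untransduced cells, with a median of 2.995. The nuclear receptors NR4A1, NR4A3 and NR4A2 fell by log2 differences of -4.50, -4.31 and -3.21, and the matrix protein gene CYR61 by -1.43. NR4A1 stood at 2.70 to 2.99 log2 RPM in sgTHAP1, 7.04 to 7.69 in sgControl and 3.82 to 4.07 in untransduced libraries, so that sgTHAP1 cells were below untransduced cells (log2 difference -1.10), whereas CYR61, at 5.46 to 5.66, 6.97 to 7.15 and 4.37 to 4.54, stayed above them (1.16).

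Of 11 other bZIP partners 6 were lower and 2 higher in sgTHAP1 than in sgControl cells (median -0.22). The small MAF genes, whose proteins dimerize within the bZIP family and lack an activation domain, fell, with log2 differences of -3.59 for MAFF, -1.18 for MAFK and -0.31 for MAFG. ATF3, a stress-induced partner of JUN, fell by a log2 difference of -1.999, and at 5.25 to 5.65 log2 RPM in sgTHAP1 it lay below both sgControl (7.37 to 7.50) and untransduced libraries (6.20 to 6.23). Of 12 factors that bind FOS and JUN promoters 8 were lower and 0 higher (median -0.22), and the leading 4 were MEF2D (-0.67), ELK4 (-0.54), SRF (-0.61) and MEF2C (-0.72). SRF, which recruits ELK proteins to the FOS promoter, stood at 6.50 to 6.85 log2 RPM in sgTHAP1, 7.18 to 7.38 in sgControl and 5.997 to 6.11 in untransduced libraries.

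The kinase cascades upstream were counted in the same way. Of 15 RAS-ERK genes 6 were lower and 3 higher in sgTHAP1 than in sgControl cells (median -0.08), led by the kinases RPS6KA3 (-0.44), BRAF (-0.51) and RPS6KA5 (-0.67). Of 14 JNK and p38 genes 6 were lower and 0 higher (median -0.09), led by MAPK8, which encodes JNK1 (-0.38), MAP3K5 (-0.54), MAP2K6 (-0.67) and MAP3K1 (-0.24). No gene of either list was called at 2-fold. Phosphatases that switch off MAP kinases were lower in 8 of 10 and higher in 0 (median -0.59). DUSP5, which acts on nuclear ERK, fell by a log2 difference of -2.67, at 1.39 to 2.67 log2 RPM in sgTHAP1, 4.45 to 4.75 in sgControl and 0.59 to 1.32 in untransduced libraries, and DUSP8, DUSP16 and DUSP10 fell with values of -0.69, -0.49 and -0.94.

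Of 11 genes that act on the turnover of FOS and JUN mRNA or protein 6 were lower and 3 higher in sgTHAP1 than in sgControl cells (median -0.18). The mRNA decay factors ZFP36, ZFP36L1 and ZFP36L2 were lower by log2 differences of -1.21, -0.63 and -0.51, and DET1, part of a ubiquitin ligase for JUN, was higher by 0.72. Of 22 textbook AP-1 target genes 13 passed the filter, with 7 lower and 3 higher (median -0.39). Those with the smallest p were CCND1 (cyclin D1; -1.33), PTGS2 (prostaglandin synthase; -1.33), HBEGF (an EGF receptor ligand; -0.87) and VEGFA (an angiogenic factor; -0.33). Among all 16787 genes 32.6% were lower and 20.2% higher at this threshold, beside 40% lower and 20% higher in the RAS-ERK list.

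The genes most like each main member were found by Pearson's r of log2 RPM over the 15 libraries, as a description, since the libraries share 5 groups. CSRNP1, an immediate early nuclear protein gene, was most like FOS (r = 0.992), followed by SPEN (0.984) and USP15 (0.982). For FOSB these were MCL1, an antiapoptotic gene (0.994), WDR33 (0.994) and CYR61 (0.991), and for FOSL1 KANSL2 (0.938), SLC41A1 (0.936) and PDPK1 (0.931). JUN was most like BRD2, a bromodomain gene (0.991), SERTAD1 (0.991) and COPS3 (0.990). Their changes differed widely in size, with a log2 difference of sgTHAP1 minus sgControl of -1.49 for CSRNP1 and -0.98 for MCL1 and of -0.05 for COPS3.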

How the data were processed

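Polyadenylated RNA of 15 HEK-293T libraries was analysed from values per gene that the authors deposited. According to the methods, libraries were strand-specific, replicates were biological, and reads were trimmed with Cutadapt, aligned to GRCh38 with HISAT2 and analysed in SeqMonk. Neither the annotation release nor the use of strand in counting is stated there. The authors deposited log2 RPM, scaled to each library's total, where a gene without reads has the value that 0.9 of a read would give. Reads were recovered from the steps between low values (99.6% to 99.9% of values per library whole within 0.01 of a read). They are not independent molecules. The authors' columns of comparisons (3) and means (7) were not used.

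Genes had to reach log2 RPM -2 in 3 or more libraries, and the 16787 that did were fitted with limma 3.58.1 in R 4.3.3, with a trend in the variance and Benjamini-Hochberg adjustment over all 16787. The groups were sgTHAP1 (6), sgControl (6) and untransduced (3), and guides were compared in a separate fit that gave each guide its own coefficient. Called means an adjusted p under 0.001 and more than 2-fold. Exact two-sided permutation tests were added for single members. The scripts were tested on simulated data. Replicates of a group differed by 2.38 to 4.78 chi-square units per gene, so none was a duplicate.

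Named genes were all members, up to 4 genes per list with the smallest adjusted p for sgTHAP1 against sgControl, the 3 genes most correlated with FOS, FOSB, FOSL1 and JUN, genes overlapping members, and THAP1 and PSMB5. 1 gene that the rule would name is not reported here. Both the markers named with the library facts and these genes, like members and lists, were chosen with earlier results of these data known. Alternatives were other filters, a pseudocount of 0.5 RPM, quantile normalization, median centring, voom, array weights, a replicate block, other thresholds, single guides and leaving out each library.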

Additional observations from a re-analysis of the deposited data

Results flagged for a closer look

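The difference between guides was tested within the same contrast, and 7 differences in 6 members, FOS in both contrasts, passed an adjusted p under 0.05 in limma with separate guide coefficients. With sg1-THAP1 relative to sg2-THAP1 the log2 differences were -0.47 for FOS, -1.37 for FOSL1 and -0.67 for FOSL2, where 40.0% of all genes differed. With sg1-Control relative to sg2-Control they were 0.35 for FOS, 0.37 for FOSB, 0.12 for JUN and 0.76 for JUNB, where 3.88% of all genes differed. No library stood apart by Dixon's test (critical value 0.625 for 6 libraries) in any of the 16 sets of sgTHAP1 or sgControl values of the 8 members.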

How the results depend on the processing

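The number of members called between sgTHAP1 and sgControl stayed within 1.5 times of 5 under all alternatives but 1 and was 4 to 5 when each library was left out, while removing genes also called between sgControl and untransduced cells left 0. The count between sgControl and untransduced cells stayed within 1.5 times of 6. Between sgTHAP1 and untransduced cells the count of 1 became 4 under quantile normalization, 2 with array weights, under median centring, with separate guide coefficients or at an adjusted p under 0.05 with more than 2-fold, 3 with sg2-THAP1 alone and 6 at an adjusted p under 0.05 alone, and 1 to 2 with a library left out. The count of 3 between the THAP1 guides was 2 to 5 with a library left out and 0 at an adjusted p under 0.001 with more than 2-fold, and the count of 4 between the control guides was 2 without a filter, 2 to 4 with a library left out and 0 at the stricter threshold. Signs turned for JUN (sgTHAP1 minus sgControl 0.0087 and sg1-THAP1 minus sg2-THAP1 0.0495, both under median centring), for JUNB (sgTHAP1 minus untransduced 0.33 under quantile normalization, 0.21 under median centring and 0.0024 with sg2-THAP1 alone) and for FOSL1 (sg1-Control minus sg2-Control -0.0413 with array weights and -0.17 to 0.36 with a library left out). JUND between control guides was -0.0014 to 0.0330 with a library left out. For BATF3, sgTHAP1 minus sgControl was 0.13 under quantile normalization, 0.0915 under median centring, 0.0403 with sg1-THAP1 alone, 0.10 with sg2-Control alone and -0.0876 to 0.0324 with a library left out. BATF3 was 0.40 and 0.0287 for sgControl minus untransduced and 0.52 and 0.12 for sgTHAP1 minus untransduced under quantile normalization and median centring, and -0.0056 to 0.24 for sg1-THAP1 minus sg2-THAP1 with a library left out. The cause of these changes was not tested. Quantile normalization also turned the split of all calls between sgControl and untransduced from 384 higher and 1470 lower to 841 and 687, between sgTHAP1 and untransduced from 423 and 2253 to 1108 and 1043, and between sgTHAP1 and sgControl from 58 and 308 to 107 and 209, and median centring gave 616 and 1068, 940 and 1445, and 104 and 229. With the replicate number as a block the counts of members were 5, 6, 1, 3 and 4, as without it. Same-numbered libraries correlated at -0.15 to 0.11 in their deviations, against -0.15 to 0.21 for other pairs. On average, 7 of 15 libraries correlated best with those of their own number. No pairing by number was seen, but with 3 libraries per group the check cannot exclude a shared batch. The edgeR and DESeq2 alternatives were not run, because the deposited values are on a log2 scale. Depth limits FOSL1, with as few as 3 reads in a library.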
